A study of Mus musculus with 2 samples.

Results

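The mRNAs of the cytosolic translation initiation and elongation factors were examined in 4T1 cells, a cell line from a mammary tumour of a BALB/c mouse, carrying a knockout of Cd28. The genes were chosen by name, as the protein-coding rows of the deposited count table whose symbols start with Eif1 to Eif6 or with Eef1 or Eef2, without the eIF2 alpha kinase genes. This gave 64 genes, 51 named Eif and 13 named Eef, of 54532 rows in all, of which 22046 are protein-coding. The series holds 2 samples of 4T1 cells, titled WT and KO, 1 per group, from which poly(A) RNA was sequenced. The KO sample is the knockout of Cd28, a receptor best known for costimulating T cells, per the series' design text. The sources used here do not state how the gene was disrupted or whether the line is a single clone. Only the column headed KO has the name of a sample, so the levels below come from 1 library without a replicate, and no effect of the knockout was measured.

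Counted reads in the knockout library came to 15565990. To set genes side by side, each gene's reads were divided by its deposited length and scaled to sum to 1000000 over the table (TPM). Intervals are exact Poisson 95% intervals. They cover counting error only, because there is 1 library and no replicate. Reads that are PCR copies of the same molecule would make them too narrow even for that. Genes with at least 10 reads count as detected, and a percentile is the percentage of the 11497 detected protein-coding genes with a lower TPM. The median detected gene had 24.4 TPM. Cd28 itself had 8 reads, which is 0.514 reads per 1000000 counted (0.222 to 1.01), and without a wild-type level this count does not check the label. Of 6 epithelial markers, 5 were detected, from 60.3 TPM for Epcam to 2183 TPM for Krt18, and Cldn3 had 1 read. Of 6 leukocyte markers and 3 endothelial markers, 0 were detected. The summed level was 0.0379 TPM over the leukocyte list and 0.0454 TPM over the endothelial list, and Ptprc, Cd3e, Pecam1 and Kdr had 0 reads.

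Translation of an mRNA starts when eIF4F binds the cap and the small ribosomal subunit, carrying eIF1, eIF1A, eIF3, eIF5 and the eIF2-bound initiator tRNA, scans to a start codon. eIF5B then joins the large subunit, after which eEF1A delivers aminoacyl-tRNAs and eEF2 moves the ribosome along. Growth signals act mainly at eIF4E, through its binding proteins, and stress signals at eIF2, through phosphorylation that blocks the exchange factor eIF2B.

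Translation factor mRNAs were abundant in this library. Of the 64 genes, 59 (92.2%) had at least 10 reads, against 52.2% of all protein-coding genes. Of the 59 detected, 51 (86.4%) lay above the median TPM, against 50% of detected protein-coding genes by definition. At or above the 95th percentile were 22 of them (37.3%), against 4.99% of detected protein-coding genes. The median of the detected factors was 111 TPM, at percentile 89.6. Together the 64 genes took 4.07% of all counted reads (Clopper-Pearson 95% interval 4.06% to 4.08%). Eef1a1 and Eef2 alone held 2.39%, and the other 62 genes 1.68%. These counts describe 1 library and cannot show whether the factors stand at these levels in other 4T1 cultures.

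**Figure D1:**
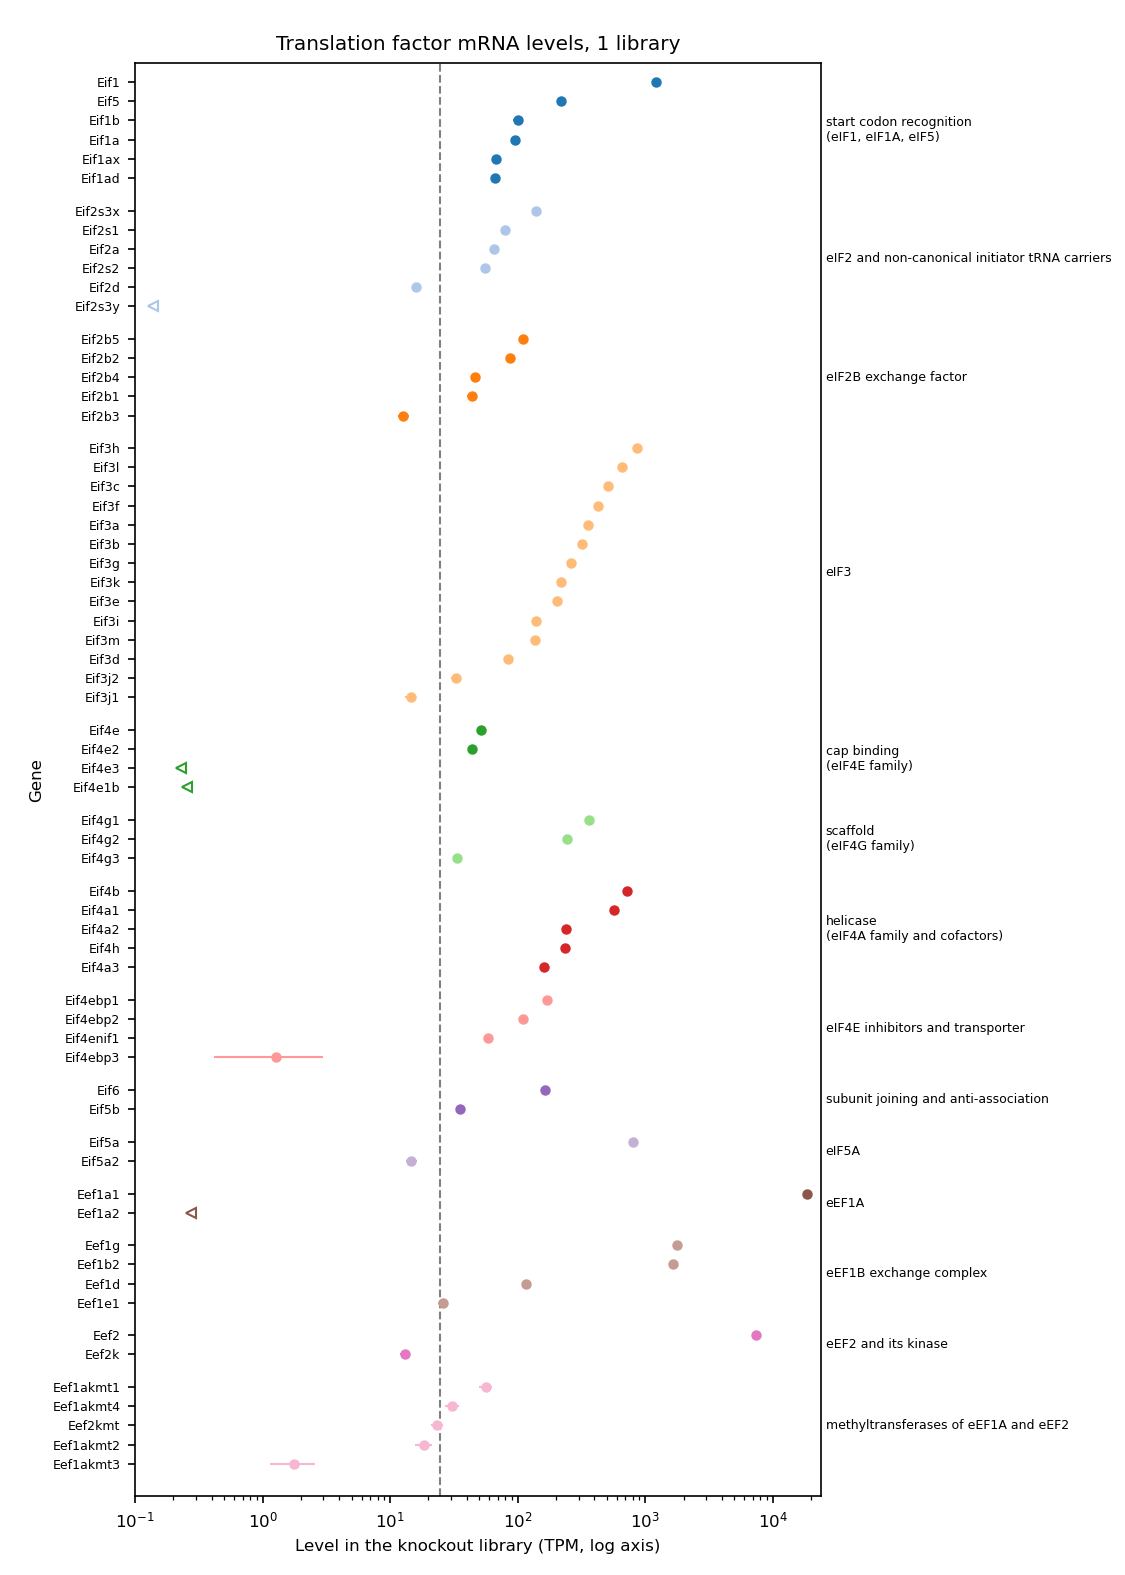
Level of each of the 64 translation factor genes in the knockout library, in TPM on a log axis, grouped by role. Points carry exact Poisson 95% intervals, open triangles mark the 3-read limit of genes with 0 reads, and the dashed line is the median of detected protein-coding genes, 24.4 TPM. Eef1a1 and Eef2 stand at the right, and the genes at 0 reads are Eef1a2, Eif2s3y, Eif4e3 and Eif4e1b.

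**Figure D2:**
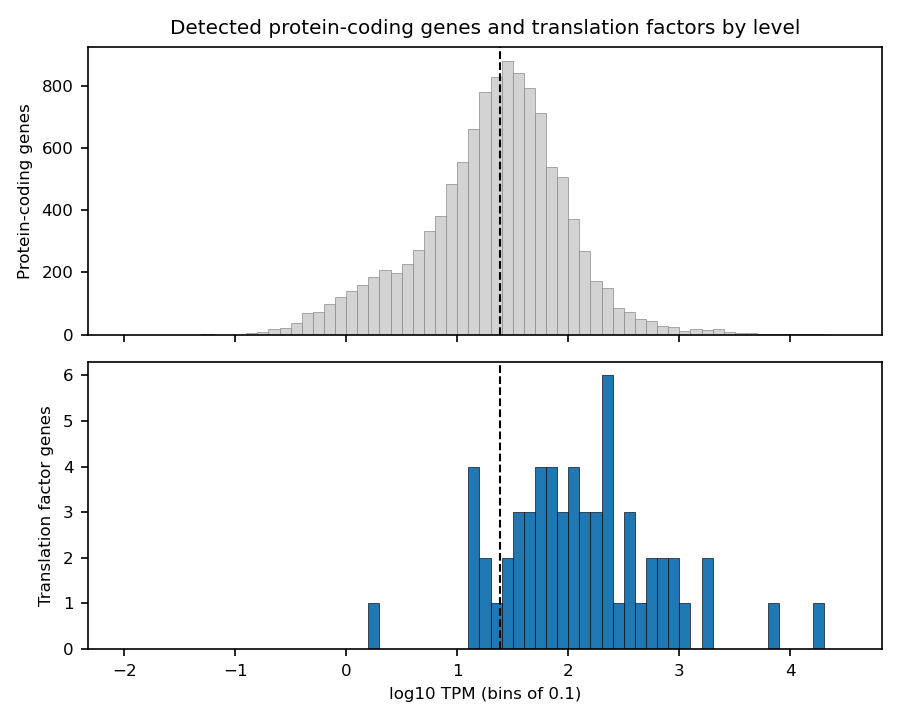
Number of genes per bin of log10 TPM, for the 11497 detected protein-coding genes (top) and the 59 detected translation factors (bottom), with the median of the former as a dashed line. Of the factors, 51 lie to the right of the line and 8 to its left.

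The elongation GTPases held the highest levels of the set. Eef1a1, which encodes the GTPase that brings aminoacyl-tRNA to the ribosome, had 243354 reads and 18611 TPM (18537 to 18685). No protein-coding gene had more reads, and with the deposited lengths none had a higher TPM. With the length of own sequence, meaning the part of 1 transcript that occurs in no other annotated gene, its percentile was 99.97. That length fits a count only if reads in shared sequence were left out, which is not stated. Otherwise it overstates genes with much shared sequence. Eef2, the translocase, had 128424 reads and 7366 TPM (7326 to 7406), and ranked 6 among protein-coding genes by TPM, at percentile 99.95, or 99.67 with the length of own sequence. The level of Eef1a1 was 2.53 times that of Eef2 (2.51 to 2.54). The ratio was 3.26 with the length of 1 transcript each. It was 4.45 with the length of own sequence, which also counts that 73.3% of the 100-base windows of Eef1a1 are its own against 99.9% for Eef2. Eef1a2, the paralog known from neurons and muscle, had 0 reads. Against a limit of 3 reads, which is 0.274 TPM for its length, Eef1a1 was at least 67810-fold higher. Eef2k, the kinase that phosphorylates and inhibits eEF2, had 512 reads and 13.2 TPM (12.1 to 14.4), at percentile 32.2.

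The exchange complex that reloads eEF1A with GTP was unequal among its subunits. Eef1g, the gamma subunit, had 24022 reads and 1762 TPM (1739 to 1784). Eef1b2, a catalytic subunit, had 21878 reads and 1647 TPM (1626 to 1669), both above percentile 99. Eef1d, the other catalytic subunit, had 3966 reads and 117 TPM (113 to 120), at percentile 90.3. The level of Eef1b2 was 14.1 times that of Eef1d (13.7 to 14.6) with deposited lengths, and 8.09 times with the length of 1 transcript each. The Eef1d transcript was picked for its longest coding part, 1980 of 2842 bases. Which form these cells use was not measured, and a shorter one would lower the ratio. Eef1e1, a relative that is part of the aminoacyl-tRNA synthetase complex, had 445 reads and 26.05 TPM (23.7 to 28.6), and its interval includes the median.

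A near-identical copy of Eef1g elsewhere in the genome also held reads. The processed pseudogene Gm4366, an intronless copy on the minus strand of chromosome 7 (116824510 to 116825851, mm10), had 9868 reads, or 29.1% of the reads on the pair. Its annotated sequence differed from the Eef1g transcript at 5 of 1342 aligned bases, and the longest stretch without a difference was 461 bases. The stretch around the first difference is shown because a read within it can be placed only by this base. Capitals mark that base, at position 274 counted from 1 at the 5′ end of the copy, where the change from Eef1g is G274A.
Eef1g: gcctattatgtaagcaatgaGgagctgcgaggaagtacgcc
Gm4366: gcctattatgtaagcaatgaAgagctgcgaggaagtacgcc
With the reads of Gm4366 added, the level of Eef1g was 2488 TPM. Reads transcribed from Gm4366 and reads of Eef1g placed on it cannot be told apart in these counts.

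All 6 genes grouped here under start codon recognition exceeded the median, among them Eif1ad, placed by the domain in its name. Eif1, the gatekeeper that holds the scanning complex open, had 13359 reads and 1214 TPM (1193 to 1235). This was the highest level of an initiation factor with deposited and with transcript lengths. With the length of own sequence Eif4a1 was higher, at 1771 TPM against 1196 for Eif1. Only 39.2% of the windows of Eif4a1 are its own, so that order holds only if reads in shared sequence were not counted. Its paralog Eif1b had 591 reads and 100.2 TPM (92.2 to 109). The level of Eif1 was 12.1 times that of Eif1b (11.2 to 13.2), and 21.9 times with the length of own sequence. Eif5, which stimulates GTP hydrolysis by eIF2, had 7827 reads and 219 TPM (214 to 224). The eIF1A proteins, which bind beside eIF1, come from Eif1a and the X-linked Eif1ax, with 1447 and 1885 reads. Eif1ax lay at 68.2 TPM (65.2 to 71.4) and Eif1a at 95.8 (90.95 to 101). Eif1ad, named for an eIF1A-like domain, had 855 reads and 66.02 TPM (61.7 to 70.6), which overlaps the interval of Eif1ax.

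The autosomal and X-linked subunits of eIF2, which carries the initiator tRNA, ranged from 55.1 to 140.3 TPM with deposited lengths. Eif2s3x, the gamma subunit that binds GTP and the tRNA, had 2805 reads and 140.3 TPM (135 to 146). Eif2s1, the alpha subunit phosphorylated under stress, had 2052 reads and 79.02 TPM (75.6 to 82.5). Eif2s2, the beta subunit, had 1952 reads and 55.1 TPM (52.7 to 57.6). The order of alpha over beta did not hold under another length: the ratio of Eif2s1 to Eif2s2 was 1.43 with deposited lengths and 0.785 with the length of 1 transcript each. Eif2s3x and Eif2s2 were nearly level with transcript lengths, at 101.7 and 101.5 TPM. With the length of own sequence they lay at 113.6 and 90.4 TPM. The Y-linked copy Eif2s3y had 0 reads, which allows 0.137 TPM. Eif2a and Eif2d, which can deliver initiator tRNA without eIF2, had 2100 and 622 reads, at 65.4 TPM (62.7 to 68.3) and 16.1 TPM (14.8 to 17.4). With transcript lengths these 2 lay at 121 and 40.9 TPM.

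The 5 genes of eIF2B, which recharges eIF2 with GTP, had a median of 46.6 TPM, against 291 TPM over the eIF3 core. Eif2b5, the catalytic subunit, led with 1491 reads and 110 TPM (104 to 115). Eif2b2 followed with 857 reads and 86.7 TPM (81 to 92.7). Eif2b4 had 635 reads and 46.6 TPM and Eif2b1 594 reads and 43.9 TPM. Eif2b3, which pairs with the catalytic subunit, was lowest, with 435 reads and 12.7 TPM (11.6 to 14), under the median. With the length of 1 transcript it lay above the median, at 36.99 TPM, and with the length of own sequence at percentile 59.96. The level of Eif2b5 was 8.61 times that of Eif2b3 (7.73 to 9.6), but 2.09 times with the length of 1 transcript, since the deposited length of Eif2b3 is 6520 bases and its chosen transcript 1555.

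eIF3 is a complex of many subunits that binds the small ribosomal subunit. All 12 core subunit genes exceeded the median, with a group median of 291 TPM at percentile 97.1, and together they held 0.454% of reads. The core is built of an octamer of subunits with PCI or MPN domains, a module of the b, g and i subunits, and eIF3d, which can itself bind the cap. In the octamer, Eif3h was highest, with 7341 reads and 868 TPM (848 to 888). Eif3l followed with 12544 reads and 657 TPM (646 to 669), and Eif3c with 9413 reads and 511 TPM (501 to 522). Eif3f had 6472 reads and 427 TPM, and Eif3a, the scaffold of the octamer, had 9592 reads and 353 TPM. Eif3k (3092 reads, 218 TPM), Eif3e (7117 reads, 202 TPM) and Eif3m (1867 reads, 137 TPM) were lower. For Eif3e and Eif3k this order rested on the deposited lengths: with transcript lengths they lay at 625 and 528 TPM, above Eif3c at 368, Eif3f at 340.4 and Eif3a at 247 TPM.

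The octamer genes had a median of 390.1 TPM and the b-g-i module 263 TPM. Of the module, Eif3b had 5603 reads and 319 TPM (311 to 328), Eif3g 2738 reads and 263 TPM (253 to 273), and Eif3i 2690 reads and 139 TPM (133 to 144). Eif3d was the lowest core gene, with 2198 reads and 84.4 TPM (80.9 to 87.95). The ratio of the highest to the lowest core gene was 10.3. It was 5.58 with transcript lengths, where Eif3l at 854 TPM took the place of Eif3h and Eif3d stayed lowest at 153 TPM. Exons of other genes cover 43.3% of the merged exons of Eif3d, mostly those of the antisense gene Gm17638, which had 21 reads.

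**Figure D3:**
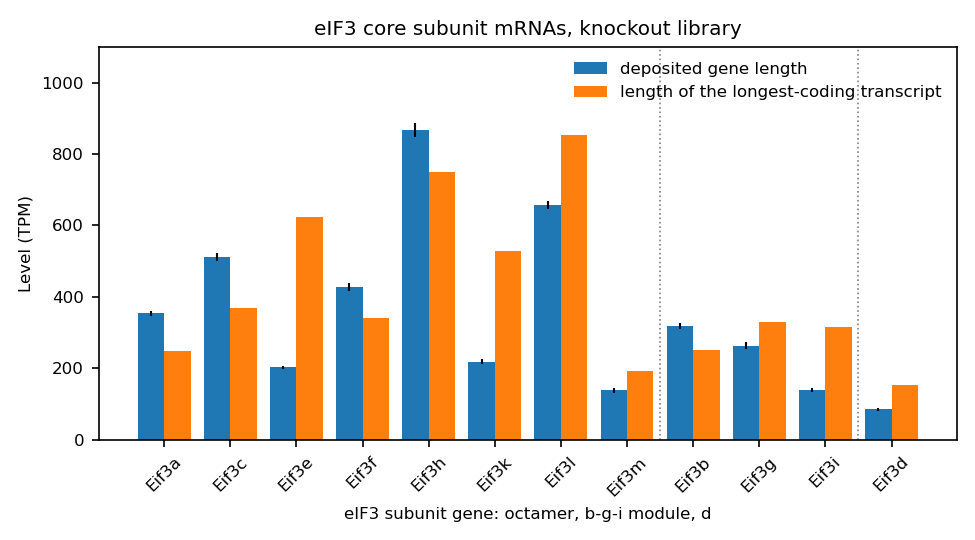
Level of the 12 eIF3 core subunit genes in the knockout library, in TPM, with the deposited gene length (blue, exact Poisson 95% intervals) and with the length of the transcript that has the longest coding part (orange). Dotted lines separate the octamer, the b-g-i module and Eif3d, which is lowest with both lengths, at 84.4 and 153 TPM. Eif3e moves most, from 202 to 625 TPM.

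With deposited lengths the genes of the loosely bound j subunit, which regulates start site selection, lay under all core genes. Eif3j1 had 444 reads and 14.5 TPM (13.2 to 15.9), at percentile 34.7, and its intronless copy Eif3j2 had 410 reads and 32.9 TPM (29.8 to 36.2). Of their 100-base windows, 52.4% of Eif3j1 and 16.01% of Eif3j2 are found in that gene alone, and how reads divide between them is therefore uncertain. With the length of own sequence Eif3j2 lay at 103 TPM, at percentile 91.3, close to Eif3d, the lowest core gene, at 117 TPM. Eif3j1 lay at 14.97 TPM with that length. The distance from the core therefore depended on the length used. Exons of Spg11 on the opposite strand cover most of the 20.2% of Eif3j1 exons that other genes overlap, and Spg11 had 693 reads.

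In eIF4F, the scaffold and helicase mRNAs were higher than that of the cap-binding protein. Eif4e, which binds the cap, had 1640 reads and 52.04 TPM (49.6 to 54.6), at percentile 74. Eif4g1, the scaffold, had 13849 reads and 362 TPM (356 to 368), which is 6.95 times Eif4e (6.6 to 7.32). Eif4a1, the RNA helicase, had 12871 reads and 566 TPM (556 to 576), which is 1.57 times Eif4g1 (1.53 to 1.6). The ratio of Eif4a1 to Eif4g1 was 2.95 with transcript lengths.

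Paralogs of these subunits differed in level. Eif4e2, a cap-binding relative that mostly represses translation, had 1719 reads and 43.7 TPM (41.7 to 45.8). Eif4e was 1.19 times Eif4e2 with deposited lengths and 0.548 times with transcript lengths, so their order is not settled. Eif4e3 and Eif4e1b, a relative known from oocytes, had 0 reads each, which allows 0.227 and 0.254 TPM. Eif4g2, which lacks the part that binds eIF4E, had 12904 reads and 242 TPM (238 to 246). Eif4g3 had 1953 reads and 33.7 TPM (32.2 to 35.2), and Eif4g1 was 10.7 times that level (10.2 to 11.3), or 6.65 times with transcript lengths. The chosen transcript of Eif4g3 has 5289 bases, of which 5286 are coding, so it too leaves out nearly all untranslated sequence, which lowers the second ratio.

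Eif4b, an activator of the helicase, had 16877 reads and 720.2 TPM (709 to 731). It was the highest gene of the eIF4A group with deposited lengths, but with transcript lengths it lay at 579 TPM, under Eif4a1 at 959 and Eif4a2 at 721. Eif4h, its smaller relative, had 6873 reads and 236 TPM (231 to 242). Eif4a2 had 6688 reads and 239 TPM (233 to 245). Its chosen transcript has 1227 bases, of which 1224 are coding, against a deposited length of 5338. That length leaves out nearly all untranslated sequence, which raises the level of Eif4a2 with transcript lengths. Eif4a3, a core part of the exon junction complex rather than of eIF4F, was lowest of the group with each length, with 1783 reads and 160.2 TPM (153 to 168). Of the level shared by Eif4a1 and Eif4a2, 70.3% (69.7% to 70.9%) lay on Eif4a1. That share was 57.1% with transcript lengths and 75.1% with the length of own sequence, both of which use the short Eif4a2 transcript. Eif4a1 exceeded Eif4a2 with each of these lengths.

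Eif4a1 also has an intronless copy, on chromosome 1 upstream of Cd28. The processed pseudogene Eif4a-ps4 (60703932 to 60705149, plus strand, mm10) had 1664 reads, 11.4% of the reads on the pair. Its annotated sequence differed from the Eif4a1 transcript at 1 of 1218 aligned bases. The stretch around this base is shown because it holds the only difference between the annotated sequences. Capitals mark position 534 from the 5′ end of the copy, where the change from Eif4a1 is G534A.
Eif4a1: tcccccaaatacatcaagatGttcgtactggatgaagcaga
Eif4a-ps4: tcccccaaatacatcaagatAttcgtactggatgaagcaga
With these reads added, the level of Eif4a1 was 640 TPM. As for Gm4366, the source of the reads cannot be told apart in these counts.

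The eIF4E-binding proteins, which block the joining of eIF4E to eIF4G until mTOR phosphorylates them, exceeded their target in mRNA level. Eif4ebp1 had 1957 reads and 169.9 TPM (162 to 178), and Eif4ebp2 had 3356 reads and 111 TPM (107 to 114). Eif4ebp3 had 5 reads, under the detection threshold, at 1.28 TPM (0.416 to 2.99). Exons of other genes in the GENCODE annotation cover 67.3% of it, but those genes have no row in the deposited counts. The summed level of the binding proteins was 5.41 times that of Eif4e. Eif4enif1, which shuttles eIF4E into the nucleus, had 1947 reads and 58.3 TPM (55.7 to 60.9).

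At the later steps, Eif6, which keeps the ribosomal subunits apart until the large one is mature, had 2342 reads and 165 TPM (159 to 172). Eif5b, the GTPase of subunit joining, had 1797 reads and 35.1 TPM (33.5 to 36.8), and exons of Rev1 on the opposite strand (487 reads) lie over most of the 16.8% of its exons shared with other genes. Eif5a, the hypusine-bearing factor that helps ribosomes through difficult peptide bonds, had 10009 reads and 803 TPM (787 to 819), at percentile 99.02. Its paralog Eif5a2, amplified in some human cancers, had 386 reads and 14.6 TPM (13.2 to 16.2), at percentile 34.9. The level of Eif5a was 54.8 times that of Eif5a2 (49.5 to 60.9), and 90.7 times with transcript lengths.

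The enzymes that methylate elongation factors had a group median of 23.5 TPM, near that of all detected genes. Of 5 genes, 2 exceeded the median, Eef1akmt1 with 279 reads and 56.2 TPM (49.8 to 63.2) and Eef1akmt4 with 258 reads and 30.5 TPM (26.9 to 34.4). Eef2kmt, which acts on eEF2, had 330 reads and 23.5 TPM (21.03 to 26.2), and its interval includes the median. Eef1akmt2 had 171 reads and 18.5 TPM (15.8 to 21.5). Eef1akmt3 had 25 reads and 1.75 TPM (1.13 to 2.59), the lowest level of a detected factor and at percentile 7.09. Other genes' exons cover 31.7% of Eef1akmt4 and 22.97% of Eef2kmt.

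Part of the set shares sequence with other genes. All 100-base windows were own sequence in 34 of the 64 genes, and under 80% in 9. These counts were not set beside all protein-coding genes, so they do not show whether the set is unusual. Beside Eif3j2, the lowest own shares among detected genes were 39.2% for Eif4a1, 50.6% for Eef1g, 52.4% for Eif3j1, 59.9% for Eef1akmt4, 64.7% for Eif2s3x, 73.3% for Eef1a1 and 79.8% for Eef2kmt. Of processed pseudogenes, 7 shared at least 50% of their 50-base windows with a factor. Besides Gm4366 and Eif4a-ps4 these were Gm9892 for Eif2s2 (267 reads), Gm2223 for Eif2s3x (71), Gm2999 for Eif4a2 (66), Gm10157 for Eif1 (29) and Gm7327 for Eif4e (21). Gm13456, a copy of Eef1a1 just under that share at 49.2%, had 886 reads.

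**Figure D4:**
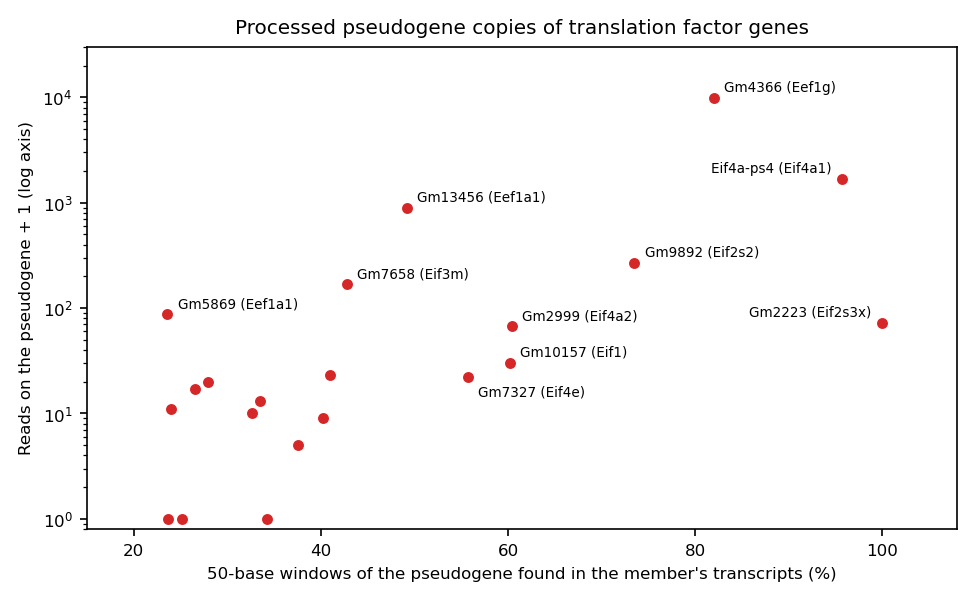
Reads on each processed pseudogene (plus 1, log axis) against the percentage of its 50-base windows found in the transcripts of a translation factor, for pseudogenes sharing at least 20%. Names give the pseudogene and, in brackets, the factor. Gm4366, with 9868 reads, and Eif4a-ps4, with 1664, lie above the rest.

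The factor genes lie on 20 chromosomes, with 6 each on chromosomes 7 and 15. On the plus strand of chromosome 16, Eif2b5 (20498817 to 20509323), Eef1akmt4 (20611593 to 20619011) and Eif4g1 (20668313 to 20692884) had 110, 30.5 and 362 TPM. On the minus strand of chromosome 11, Eif4a1 (69666936 to 69672423) and Eif5a (69916714 to 69921958) had 566 and 803 TPM, and 959 and 921 TPM with transcript lengths, where their order turned. These positions are those of the deposited table, build mm10, counted from 1.

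Many translation factor mRNAs are known to begin with a terminal oligopyrimidine tract, through which mTOR and LARP1 control their translation. RefSeq start sites on GRCm38.p6 were found for 48 of the 64 genes, 46 of them detected. The window ran from 5 bases before to 25 bases after the start. In it, a C followed by at least 4 pyrimidines stood in 16 of the 46 (34.8%), against 40.2% of 9075 detected protein-coding genes. A C followed by at least 6 pyrimidines stood in 11 (23.9%), against 14.9%. The direction of the difference turned with the length of the run, and neither difference was tested. A gene counted if any of its windows held a run, so genes with more annotated starts had more chances. Of all 32851 reference windows, 34.6% held the shorter run and 12.3% the longer. A run could stand anywhere in the window, so it need not be a tract at the first base. The windows below, on the transcribed strand, show 5 members with a run next to 1 without, picked by hand after their levels and sequences were seen. Capitals mark the longest run that starts with C. Counting the annotated first base as 1, these runs start at -5 (Eef1a1), 16 (Eef2), -4 (Eif3f), 5 (Eif3l) and 11 (Eif4b). So no marked run begins at that base, and those of Eef1a1 and Eif3f begin before it.
Eef1a1: CCCTCTTCCCgagggtgggggagaacggta
Eef2: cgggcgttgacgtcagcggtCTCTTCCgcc
Eif3f: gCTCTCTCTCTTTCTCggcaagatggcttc
Eif3l: cttcttccgCTCTCTCCCacgggcttctgg
Eif4b: tcggacgccgcgccaCCCCCTCgcgctgct
Eif1: cacaggggcggctatataagtgaatacagg
They lie at chr9:78481700-78481729 (minus strand), chr10:81176626-81176655, chr7:108934410-108934439, chr15:79075218-79075247, chr15:102073768-102073797 and chr11:100319944-100319973 (plus strand). The 11 members with the longer run had a median of 218 TPM and the other 35 a median of 79.02 TPM, whereas over all detected genes the medians were 25.3 and 24.8 TPM. Eif1, at 1214 TPM, has no such run in its window, which holds a TATA-like stretch. These are letters near annotated starts, and the start used in 4T1 cells was not measured. A marked run may therefore lie outside the mRNA, and a window without a run does not show that the mRNA lacks one.

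Other genes of the translation pathway were read from lists of regulators and partners. Of 10 poly(A)-binding proteins and eIF4F regulators all were detected and 9 exceeded the median, with Pabpc1, which joins the poly(A) tail to eIF4G, at 50114 reads and 1461 TPM, and Pabpc4 at 13628 reads and 645 TPM. Larp1 lay at 176 TPM and Mknk2, a kinase of eIF4E, at 142 TPM, above its relative Mknk1 at 21.4 TPM. Pdcd4, an inhibitor of eIF4A, lay at 32.7 TPM. Of the 6 genes that set eIF2 alpha phosphorylation, 4 exceeded the median. Ppp1r15b, the constitutive phosphatase subunit, was highest at 138 TPM, and Ppp1r15a, its stress-induced counterpart, had 29.5 TPM. The kinases ran from Eif2ak2 (PKR) at 29.3 and Eif2ak1 (HRI) at 27.6 TPM to Eif2ak4 (GCN2) at 18.6 and Eif2ak3 (PERK) at 11.8 TPM.

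Of 8 genes of re-initiation, termination and recycling, 7 were detected and 5 exceeded the median. Abce1, which splits ribosomes, had 112 TPM and Etf1, the release factor, 105 TPM, while Gspt2 had 0 reads against 73.6 TPM for its paralog Gspt1. The enzymes that place hypusine on eIF5A or diphthamide on eEF2 were near or under the median: all 9 were detected and 1 exceeded it, Dph7 at 40.5 TPM, followed by Dhps, which starts hypusine synthesis, at 23.8 TPM. Of 10 mitochondrial translation factors all were detected and 3 exceeded the median, with Tufm, the mitochondrial counterpart of eEF1A, at 135 TPM and Gfm1 at 60.7 TPM. The list's median of 16.4 TPM, at percentile 38.1, compares with 111 TPM for the cytosolic factors. Of the windows of Tufm, 33.1% are its own.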

How the data were processed

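Poly(A) RNA of 4T1 cells was sequenced in 1 sample labelled WT and 1 labelled KO. The authors deposited raw read counts for each gene in 1 table, which also lists position and length. Per the submitters' processing notes the build was mm10 and the tools were featureCounts 1.5.0-p3, HISAT2 2.0.5 and CASAVA. Not given in the sources used here are the annotation release, the strand setting and how multi-mapping reads were treated. Only the column headed KO was used. A further 1 column of sample values, headed PX, matches no sample label and was left aside, so the wild-type sample was not analysed here.

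Members were all protein-coding rows that fit the name rule. They and the lists were chosen with earlier results of these data known. Each member is given by role, with its reads and its TPM.

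TPM was computed over all 54532 rows with the deposited length. Of the 64 members, 61 have the merged exon length of GENCODE vM21 (GRCm38), and the exceptions are Eif1a, Eif1ad and Eif3a. Alternatives used the length of 1 protein-coding transcript per gene (that with the longest coding part), or that length times its share of 100-base windows found in no other annotated gene on either strand, leaving out genes under 5%. All reads of a gene were divided by this last length, which presumes that reads in shared sequence were not counted. Overlaps of exons came from the same annotation. Intervals of a ratio are exact binomial intervals of the split of reads. No test was run, since there is 1 library. The interval and the window share were tested on simulated data. Python 3.11.15, numpy 2.4.6, pandas 2.3.3 and scipy 1.17.1 were used.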

Additional observations from a re-analysis of the deposited data

Results flagged for a closer look

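Reads were counted on genes outside the set that copy its members, above the limit of 3 reads that applies at a count of 0. Gm4366, the copy of Eef1g, had 9868 reads and 1402 TPM. Eif4a-ps4, the copy of Eif4a1, had 1664 reads and 260.5 TPM.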

How the results depend on the processing

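No paired analysis was possible because only the KO library entered. Nor could a replicate be removed, and depth informs about counting error alone, not about variation between cultures. The number of members detected was 60 at 1 or 3 reads and 58 at 100 reads. The number above the median was 51 with transcript lengths, 52 with the length of own sequence, 48 without length correction and 53 against genes with at least 1 read. The choice of length moved levels more than counting error did. With transcript lengths the median of detected members was 121 TPM, the eIF3 ratio 5.58, the Eif4a1 share 57.1% and the ratio of binding proteins to Eif4e 4.77. With the length of own sequence they were 103 TPM, 5.26, 75.1% and 4.72. The median detected gene shifted by a factor of 0.933 and 0.714 under these lengths. Relative to that shift, detected members ran from 0.718 for Eif1ad to 3.32 for Eif3e with transcript lengths. With the length of own sequence they ran from 0.702 for Eif4ebp2 to 4.39 for Eif3j2. How far other detected genes moved was not counted. The share of reads on the members was 4.23% of reads on protein-coding genes, 4.13% outside the mitochondrial genome and 4.15% with pseudogene copies added. With copies sharing at least 20% added it was 4.16%, and with copies added the Eif4a1 share was 72.6%, both chosen after seeing the data. Adding copies moved 0 members by over 1.5 times, with the largest change, 1.41 times, at Eef1g.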
